A study of Mus musculus with 2 samples.

Results

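The genes described here encode the cytoplasmic actins and a set of abundant proteins that bind actin. They are 10 of the 43346 annotated genes measured, namely Actb, Actg1, Cfl1, Pfn1, Tmsb4x, Tmsb10, Tpm1, Tpm3, Tpm4 and Capzb. They were picked by name, through the gene identifiers of the 2 deposited gene tables. No cut on their values was used, but earlier results of these data were known. The RNA came from G1E, an immortalised mouse erythroid progenitor line. It was derived from embryonic stem cells with a disrupted Gata1, whose product is the transcription factor needed for red cells to mature. The labels mark the cells as Gata1-, male, postnatal and 0 day of age. Poly(A) RNA was sequenced single-end in 2 libraries, labelled biological replicates 1 and 2 of 1 biosample, which form the only group. No treatment or second genotype was included, the line stands for 1 genetic background, and the labels do not say that the replicates were separate cultures, so the SD between them may be technical.

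Actin monomers polymerise into polar filaments that shape the cell cortex, drive division and, in erythroid cells, later shrink to the short protofilaments of the red cell membrane skeleton. Profilin and the beta-thymosins bind monomers, profilin to feed them to growing ends and the thymosins to hold them back. Cofilin severs old filaments, capping protein stops growth at the fast-growing (barbed) end, and tropomyosins lie along the filament and set which other proteins can bind it.

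Sequence bears directly on how well these genes can be told apart, because several have close relatives. The coding sequences of the beta-thymosins are shown because both encode a protein of the same small family and yet can be counted apart. Capitals mark the bases that differ, the sequences read 5′ to 3′, and both come from the GENCODE release M21 transcripts of GRCm38 (Tmsb4x-203 from its in-frame ATG at coding base 19, Tmsb10-203 from its start).

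Tmsb4x: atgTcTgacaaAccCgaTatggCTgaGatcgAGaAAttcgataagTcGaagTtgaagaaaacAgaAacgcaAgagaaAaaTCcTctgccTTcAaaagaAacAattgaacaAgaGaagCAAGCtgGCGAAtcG
Tmsb10: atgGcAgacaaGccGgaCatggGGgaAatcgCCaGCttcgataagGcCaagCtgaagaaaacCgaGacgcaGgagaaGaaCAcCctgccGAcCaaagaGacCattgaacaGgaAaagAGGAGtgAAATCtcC

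Of the 132 bases compared, 40 differed, and the longest stretch found in both coding sequences was 10 nt, far shorter than a read of 36 nt. The cytoplasmic actins were closer to each other. The opening 60 coding bases of Actb-201 and Actg1-204 are shown because the encoded proteins are known to differ only near their amino end, with capitals again at the 9 bases that differ.

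Actb: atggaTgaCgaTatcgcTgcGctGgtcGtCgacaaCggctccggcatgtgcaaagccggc
Actg1: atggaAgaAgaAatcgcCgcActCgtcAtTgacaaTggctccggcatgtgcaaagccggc

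Over all 1125 coding bases the actins were 88.6% identical and shared 86 of 1090 stretches of 36 nt (36-mers), so most but not all coding reads could be assigned to one of them. Tpm3 has a still closer relative in Tpm3-rs7, a single-exon gene (chr14:113314608-113316754, plus strand, GRCm38) that has 3 differences from Tpm3-201 in 744 coding bases. Coding bases 68 to 127 contain all 3 of them, which are G72A, G98A and G127A (the Tpm3-201 base, the position counted from 1 at the A of the start codon, then the Tpm3-rs7 base).

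Tpm3: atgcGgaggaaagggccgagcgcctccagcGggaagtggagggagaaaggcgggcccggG
Tpm3-rs7: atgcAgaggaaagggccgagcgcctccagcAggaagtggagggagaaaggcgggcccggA

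As genes, over all their annotated transcripts, Pfn1, Tmsb4x and Capzb shared no 36-mer with another gene and Tpm1 shared 0.030% of its 36-mers. The shared part was 18.5% for Tpm4, 19.1% for Actb, 20.6% for Cfl1, 25.8% for Tpm3, 29.9% for Tmsb10 and 39.5% for Actg1. For stretches of 55 nt the shared part was 14.8%, 6.66%, 16.4%, 22.4%, 25.5% and 36.6% in the same order. Of the 593 shared 36-mers of Cfl1, 401 were shared with Snx32. Only annotated transcripts were searched.

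The libraries held 31645051 expected counts in replicate 1 and 56983558 in replicate 2, estimated reads that need not be whole. Levels are given as TPM, in which each count is divided by effective length and scaled to a fixed total, so that genes of different length can be set side by side. Where both libraries are given, replicate 1 is followed by replicate 2. Protein-coding genes took 84.4% of the TPM of replicate 1 and 75.1% of that of replicate 2. All 8 erythroid progenitor markers listed, among them Gata2, Kit, Klf1 and Tfrc, reached 1 TPM in each library, at 48.4 to 764 TPM. Of the 5 lists of other cell types, 4 of 29 marker genes did (Pf4, Itga2b and Gp9 of the platelet lineage and Des of muscle), and the striated muscle, macrophage and lymphoid lists each summed to at most 2.75 TPM in either library.

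Of the 10 genes, 8 were expressed, which here means 1 TPM or more in both libraries. Among all 21474 protein-coding genes 42.5% were. The median of the 10 genes was 161 TPM, against 0.365 TPM for all protein-coding genes and 23.5 TPM for the 9118 expressed ones. Together the 10 genes took 0.736% of the TPM of replicate 1 and 0.394% of that of replicate 2. Actin, cofilin and profilin RNA made up nearly all of this, and Tpm4 and Tmsb4x contributed almost nothing.

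**Figure D1:**
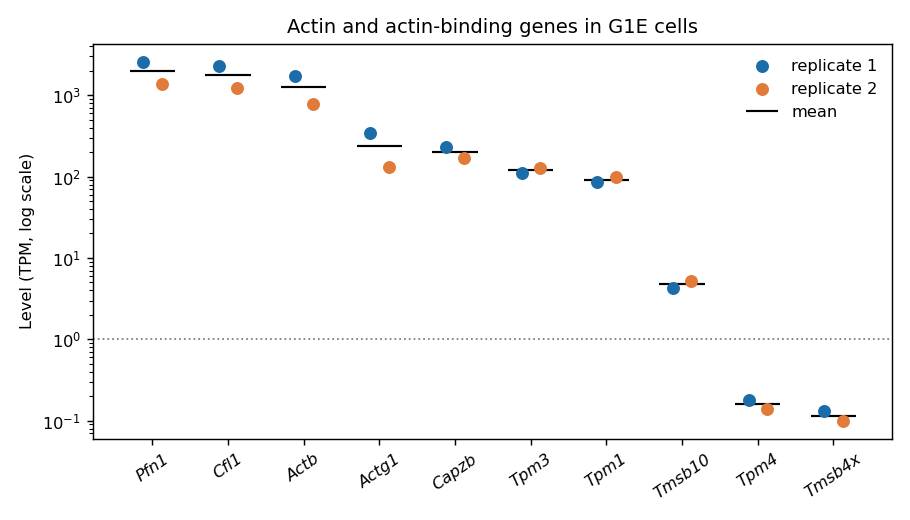
Level of each of the 10 genes in TPM on a log axis, ordered by mean, with replicate 1 in blue, replicate 2 in orange, the mean of both as a black bar and a dotted line at 1 TPM. Pfn1, Cfl1 and Actb average 1262 TPM or more, 4 genes average 91.7 to 236 TPM, Tmsb10 averages 4.78 TPM, and Tpm4 and Tmsb4x lie under 1 TPM in both libraries.

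To say whether levels of different genes stood apart, the SD between libraries of log2(TPM + 1) was pooled over the 10469 genes expressed in both libraries and came to 0.63. The libraries differed in read length, 36 nt in replicate 1 and 55 nt in replicate 2, so this SD may include that difference. A mean log2 ratio of a pair over 2 libraries has to exceed 1.23 to lie beyond the 95% range that this SD gives under a normal distribution. No p-value was computed, since an exact sign-flip permutation test of 2 libraries cannot give a two-sided p below 0.5. From highest to lowest the order was Pfn1, Cfl1, Actb, Actg1, Capzb, Tpm3, Tpm1, Tmsb10, Tpm4 and Tmsb4x. Of the 9 neighbouring pairs in that order, 3 passed the bound. They were Actb over Actg1 at 2.46 ± 0.16 and Tmsb10 over Tpm4 at 2.31 ± 0.20 (log2 ratio of TPM + 1, SD, n = 2 for both), and Tpm1 over Tmsb10 with 4.02 in one library and 3.99 in the other. The 10 genes thus formed 4 tiers, and within a tier no neighbours differed beyond the spread between libraries. Actg1 and Capzb even changed places, with a log2 ratio of Actg1 over Capzb of 0.55 in replicate 1 and -0.36 in replicate 2. In the lowest tier, Tpm4 and Tmsb4x, both under 1 TPM, could not have passed the bound once 1 was added.

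Beta-actin was the dominant actin. Actb (chr5:142903115-142906754, minus strand, GRCm38), which encodes the actin of the contractile cortex and most dynamic filaments of non-muscle cells, stood at 1732 TPM on 64883 expected counts in replicate 1 and, in replicate 2, at 792 TPM on 65597 counts. The mean was 1262 ± 665 TPM (SD, n = 2), above 99.5% of protein-coding genes. Actg1 (chr11:120345690-120348542, minus strand), the gene of the other cytoplasmic actin, gamma-actin, stood at 339 TPM on 6357 counts and at 133 TPM on 9563 counts, a mean of 236 ± 146 TPM (SD, n = 2). Both genes read higher in TPM in replicate 1, and in each library Actg1 lay under every value of Actb. The log2 ratio of Actg1 over Actb was -2.46 ± 0.16 (SD, n = 2), beyond the bound, and it was -3.08 when counts were divided by the length of the longest coding transcript in both libraries.

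The muscle actins were at the floor. Acta1 of skeletal muscle, Acta2 of vascular smooth muscle, Actc1 of heart, Actg2 of visceral smooth muscle and Actbl2 were all under 1 TPM in both libraries, and 0 of 5 were expressed. Actc1 was the highest of them at 0.51 and 0.02 TPM in replicates 1 and 2. Actb exceeded Acta2 by 10.19 ± 0.81 and Actg1 exceeded Actg2 by 7.61 ± 0.86 on the log2 scale of TPM + 1 (SD, n = 2 for both), and the added 1 makes these ratios smaller than those of the levels.

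Counts were also assigned to genes that share sequence with Actg1. Whether those reads came from Actg1 was not tested. Gm12715, a processed pseudogene (an intronless copy inserted from RNA) on chromosome 4, has 92.9% of its 36-mers in Actg1. It stood at 83.5 TPM on 2133 counts in replicate 1 and, in replicate 2, at 6.16 TPM on 300 counts. The other pseudogenes with most of their sequence in Actg1, Gm8399 and Actg-ps1, did not exceed 0.25 TPM and 1.35 TPM. Adding all 6 genes with at least 50% of their 36-mers in Actg1 raised it to 424 and 140 TPM in replicates 1 and 2, still under Actb.

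A promoter sequence is given for Actg1 because serum response factor, which binds the CArG box, is a known regulator of actin genes that itself responds to free actin monomer. RefSeq promoter windows of GRCm38.p6, from 250 bases before to 50 after a start, were searched for the CArG box, whose pattern reads alike on both strands. The window of Actg1 (chr11:120348446-120348745, minus strand) contained 1 match, starting 90 bases before the annotated start and set in capitals here with 10 bases on either side.

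Actg1 promoter: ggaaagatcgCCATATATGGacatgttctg

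Windows were searched for 9 of the 10 genes, all except Actb, and 1 of the 9, Actg1, had a match. That was 1 of the 12 windows of these genes, some of which have more than 1 window. Windows were not matched to the transcripts that held most of a gene's TPM, and starts without a window were not searched. The 1 window of Tpm1 lies at the upstream end of the gene. Among all 32851 windows 1.63% held a match. Srf itself, which encodes that factor, was at 48.4 and 26.7 TPM in replicates 1 and 2. Its listed partners Elk4 at 34.3 and 16.5 TPM and Mrtfa, the coactivator held in check by actin monomer, at 14.6 and 6.20 TPM were expressed too, while Elk3 and the muscle coactivator Myocd were under 1 TPM in both libraries. In all 5 of 7 genes of this list were expressed.

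Profilin and cofilin RNA were the most abundant of the set. Pfn1 (chr11:70651850-70654644, minus strand), the general profilin, stood at 2571 TPM on 45417 counts in replicate 1 and, in replicate 2, at 1389 TPM on 52558 counts, a mean of 1980 ± 836 TPM (SD, n = 2). Cfl1 (chr19:5490455-5495201, plus strand), the non-muscle cofilin, stood at 2281 TPM on 59307 counts and 1221 TPM on 60561 counts, a mean of 1751 ± 750 TPM (SD, n = 2). Replicate 1 over replicate 2 was 1.85-fold for Pfn1 and 1.87-fold for Cfl1 in TPM, and the genes ranked 60 and 69 among protein-coding genes. The log2 ratio of Cfl1 over Pfn1 was -0.18 ± 0.01 (SD, n = 2), inside the bound. Their sum exceeded that of the actins, at 4853 TPM against 2071 TPM in replicate 1 and 2610 TPM against 924 TPM in replicate 2.

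In each family 1 gene stood far above its paralogs. Pfn2, the profilin best known from neurons, was at 0.62 and 0.03 TPM in replicates 1 and 2, and Pfn1 exceeded it by 10.52 ± 0.17 on the log2 scale of TPM + 1 (SD, n = 2). Cfl2, the muscle cofilin, was at 1.25 and 4.36 TPM, and Dstn, which encodes the related severing protein destrin, was at 8.81 and 26.2 TPM. Cfl1 exceeded Cfl2 by 8.91 ± 1.52 and Dstn by 6.68 ± 1.68 (SD, n = 2 for both). The SDs were wide because Cfl2 and Dstn read higher in replicate 2 while Cfl1 read higher in replicate 1. In each library taken alone every ratio was at least 5.49, the value of Cfl1 over Dstn in replicate 2.

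**Figure D2:**
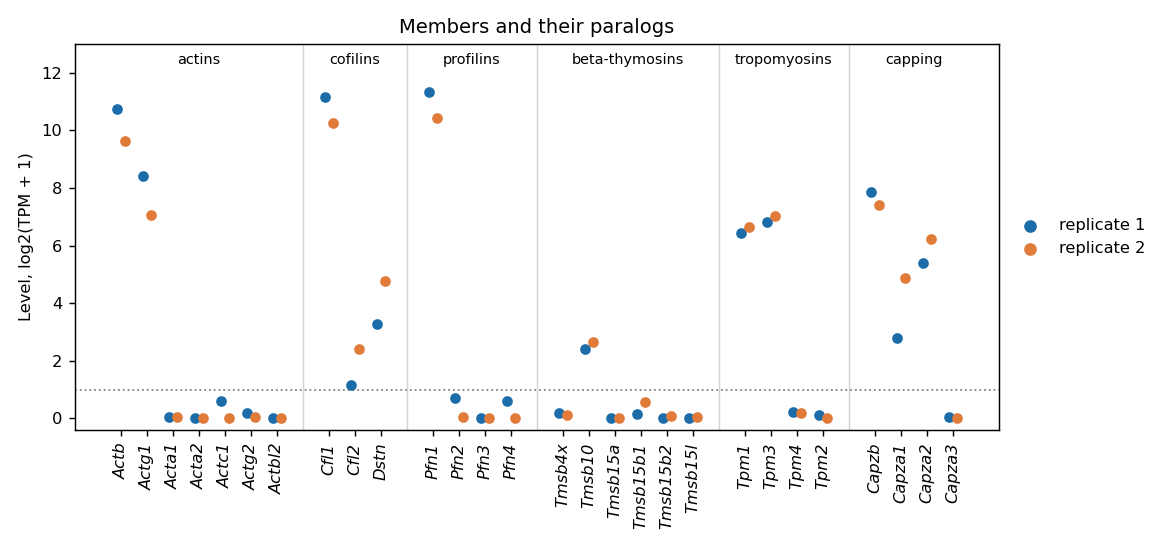
Levels as log2(TPM + 1) of the genes of 6 families, grouped by family, with replicate 1 in blue, replicate 2 in orange and a dotted line at 1 TPM. In the actin, cofilin and profilin families the genes described here lie far above the rest, among beta-thymosins Tmsb10 alone is above the line in both libraries, and Tpm4 and Tpm2 lie near 0.

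Beta-thymosin RNA was scarce. Tmsb4x (chrX:167207093-167209315, minus strand), the gene of thymosin beta 4, the main monomer-holding peptide of many blood cells, had 2 counts and 0.13 TPM in replicate 1 and 3 counts and 0.10 TPM in replicate 2. With exact 95% Poisson limits, which cover counting error only, this allows at most 0.47 TPM and 0.29 TPM. The gene shared no exact 36-mer with the annotated transcripts of another gene that were searched. Reads that align with mismatches were not considered. Tmsb10 (chr6:72957347-72958748, minus strand), the gene of thymosin beta 10, was at 4.32 TPM on 53.4 counts in replicate 1 and, in replicate 2, at 5.23 TPM on 119 counts, a mean of 4.78 ± 0.64 TPM (SD, n = 2). Tmsb10 lay above Tmsb4x in both libraries, by 2.37 ± 0.19 on the log2 scale of TPM + 1 (SD, n = 2), beyond the bound. The related genes Gm3788 and Gm9844 had 1.84 and 0.555 TPM on average, and Tmsb10 with them came to 7.07 and 7.26 TPM in replicates 1 and 2. The 4 Tmsb15 genes did not exceed 0.49 TPM in either library. Summed, Tmsb4x and Tmsb10 had 4.45 and 5.33 TPM, against 2571 and 1389 TPM of Pfn1, the other monomer-binding gene of the set.

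Short tropomyosins of Tpm1 and Tpm3 were expressed, and Tpm4 hardly at all. Tpm3 (chr3:90072649-90100902, plus strand) stood at 111 TPM on 5275 counts in replicate 1 and, in replicate 2, at 129 TPM on 10454 counts, a mean of 120 ± 12.6 TPM (SD, n = 2). Tpm1 (chr9:67022590-67049406, minus strand) stood at 85.0 TPM on 2833 counts and 98.3 TPM on 6762 counts, a mean of 91.7 ± 9.38 TPM (SD, n = 2). In contrast to the actins, both read slightly higher in replicate 2. The log2 ratio of Tpm1 over Tpm3 was -0.39 with an SD of 0.004 (n = 2), inside the bound, which does not show that their levels were alike. It was -1.11, also inside, when counts were divided by the length of the longest coding transcript in both libraries. Tpm4 (chr8:72134975-72153142, plus strand), a tropomyosin known for its part in platelets, stood at 0.18 TPM on 8.80 counts in replicate 1 and, in replicate 2, at 0.14 TPM on 13 counts, with upper 95% Poisson limits of 0.34 and 0.24 TPM. Tpm1 exceeded it by 6.32 ± 0.18 and Tpm3 exceeded it by 6.70 ± 0.19 (log2 ratio of TPM + 1, SD, n = 2 for both). Tpm2, a muscle tropomyosin, was at 0.10 and 0 TPM in replicates 1 and 2. The ratio of Tpm4 over Tpm2 was 0.15 ± 0.06 (SD, n = 2). With 1 added, genes under 1 TPM cannot differ by more than the bound, so this ratio does not show that they were alike.

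Tpm3-rs7 was assigned more reads than Tpm3 itself. It stood at 178 TPM on 8631 counts in replicate 1 and, in replicate 2, at 181 TPM on 16834 counts, and 75.9% of its 36-mers occur in Tpm3. Of the 709 coding 36-mers of Tpm3-201, 618 were also present in Tpm3-rs7-201, and over the whole transcript 1603 of 2195 were. The division of reads between them thus rests on those that cover a difference or lie outside the shared stretches. Together they came to 290 and 310 TPM in replicates 1 and 2. Against that sum Tpm1 was lower by more than the bound, at a log2 ratio of -1.70. The level of Tpm3 alone is uncertain for this reason.

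Transcripts of 248 codons, the short tropomyosin form of non-muscle cells, took most of the Tpm1 and Tpm3 level. In Tpm1 they held 84.9% of the gene's TPM in replicate 1 and 86.0% in replicate 2, while transcripts of 284 codons, the long form typical of muscle and stress fibres, held 1.29% and 0.66%. In Tpm3 the 248-codon transcripts held 85.0% and 69.0%, and the 284-codon form held 2.02% and 1.30%. The rest of Tpm3 lay mainly in transcripts without a coding sequence, at 11.9% and 27.8%, led by the retained-intron transcripts Tpm3-212 and Tpm3-207. All Tpm4 counts fell on Tpm4-201, also of 248 codons. Within the 248-codon class, Tpm1-211 led Tpm1 at 40.5% and 66.2%, with Tpm1-212 next at 28.1% and 15.9%, and Tpm3-201 and Tpm3-202 divided Tpm3 almost evenly, at 42.6% and 42.4% in replicate 1 and at 37.0% and 32.0% in replicate 2. Tpm1-204 and Tpm1-208, further short coding transcripts, and Tpm1-220, a predicted target of nonsense-mediated decay (NMD), held up to 16.3%, 6.71% and 6.42%.

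Capping protein RNA was led by the non-muscle form of its beta subunit. Capzb (chr4:139192899-139291818, plus strand) encodes the beta subunit of the heterodimer that caps barbed ends. It stood at 232 TPM on 8645 counts in replicate 1 and, in replicate 2, at 170 TPM on 12025 counts, a mean of 201 ± 43.7 TPM (SD, n = 2). Capzb-204, whose 272 codons are those of the non-muscle beta 2 isoform, held 71.2% and 55.9% of the gene's TPM. Capzb-202, of 260 codons, held 21.8% and 38.4%. Capzb-203, whose 277 codons are those of the sarcomeric beta 1 isoform, had 0 counts in both libraries. The alpha subunits were lower, with Capza2 at 40.7 and 74.6 TPM, Capza1 at 5.91 and 28.4 TPM and the testis form Capza3 at 0.04 and 0 TPM. Capzb exceeded Capza1 by 3.81 ± 1.79 and Capza2 by 1.83 ± 0.92 (log2 ratio of TPM + 1, SD, n = 2 for both), both beyond the bound. In replicate 2 alone the ratio to Capza2 was 1.18, inside that bound, which was set for a mean over 2 libraries.

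**Figure D3:**
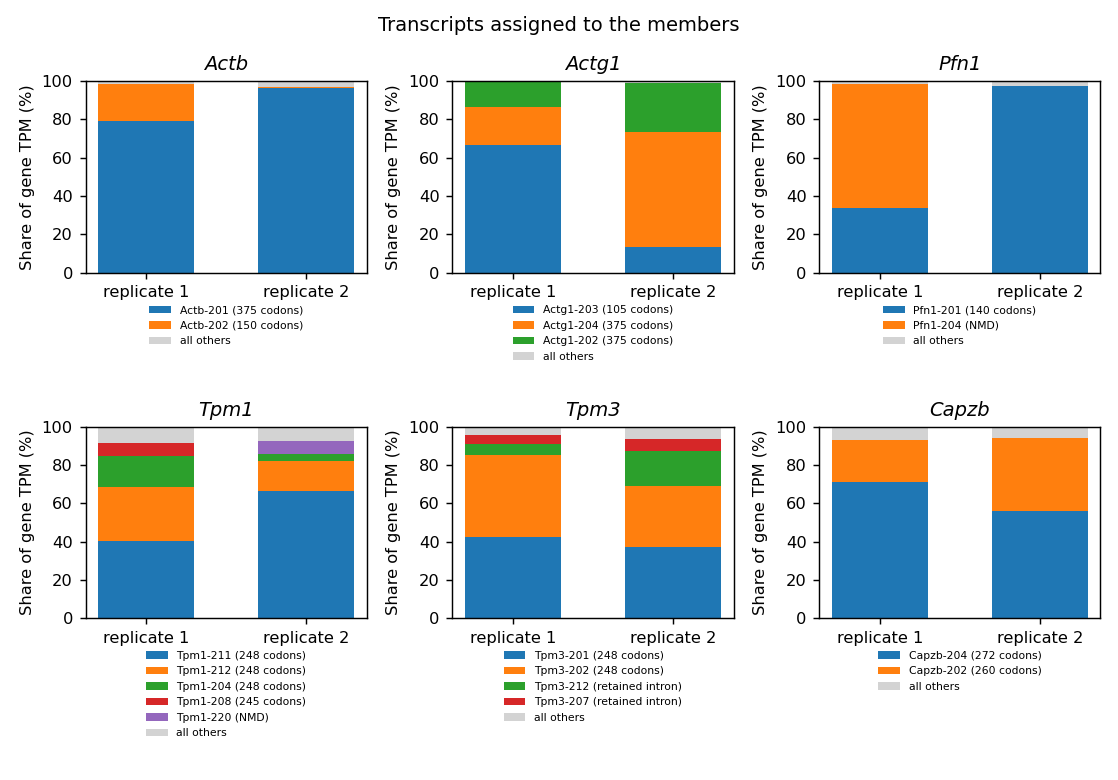
Share of each gene's TPM assigned to its transcripts, in percent, for the 6 genes with more than 1 transcript and at least 50 TPM, with replicate 1 left and replicate 2 right in each panel, and transcripts under 5% in both libraries pooled in grey. The leading transcript is the same in both bars for Actb, Tpm1, Tpm3 and Capzb and differs for Actg1 and Pfn1.

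By share of TPM, both libraries had the same leading transcript for 8 of the 10 genes. Shares here are of TPM unless counts are named. The exceptions, Pfn1 and Actg1, differed in the length to which reads were assigned. For Pfn1, Pfn1-204, a 724-nt transcript annotated as a target of NMD, held 64.5% in replicate 1 and 0.15% in replicate 2, against 33.9% and 97.3% for the coding Pfn1-201. For Actg1, Actg1-203, an incomplete coding transcript of 326 nt, held 66.5% and 13.4%. Actg1-204 held 19.9% and 59.8% and Actg1-202 held 12.9% and 25.5%, and both encode the whole 375 codons. By expected counts Actg1-203 held 24.1% and 2.30%, and Actg1-204 led both libraries at 44.4% and 66.7%. Actb showed a smaller difference of the same kind, with 19.3% and 0.33% on the incomplete Actb-202 of 536 nt (6.01% and 0.0871% of counts). Since TPM divides by the length of the transcripts to which reads are assigned, the effective length of Actg1 was 802 nt in replicate 1 and 1590 nt in replicate 2. Counted per kilobase of the longest coding transcript and per 1000000 scaled reads, Actg1 came to 96.1 and 92.1 and Actb to 998 and 642. Actg1 thus differed between libraries by 1.04-fold on this scale, against 2.56-fold in TPM. The scale also departs from TPM in how the libraries are scaled. Cfl1, which has 1 transcript, went from 1.87-fold in TPM to 1.54-fold. The parts of length and of library scaling in the change for Actg1 were not separated. This scale was chosen after the transcript shares were seen.

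Scaled counts of the 8 expressed genes differed less than 2-fold between the libraries. On counts scaled by TMM (edgeR's correction for library composition), 0 of the 8 genes with at least 50 counts in total were 2-fold or more apart, against 32.5% of all 12414 genes with that many. Their log2 ratios, replicate 2 over replicate 1, ran from -0.64 for Actb and -0.62 for Cfl1 to 0.60 for Tpm1, with a median of -0.12, against a median of 0.28 for all genes. In TPM + 1, where 20.3% of all genes were 2-fold apart, 2 of the 8 were, Actb at -1.13 and Actg1 at -1.35, both higher in replicate 1, as were 9.71% of all genes. With TPM rescaled over protein-coding genes, where 22.5% of all genes were 2-fold apart and 8.32% were so with the higher value in replicate 1, Actg1 alone was, at -1.18, and Actb was at -0.96. The median of the 8 genes in TPM was -0.67, against -0.06 for all genes.

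**Figure D4:**
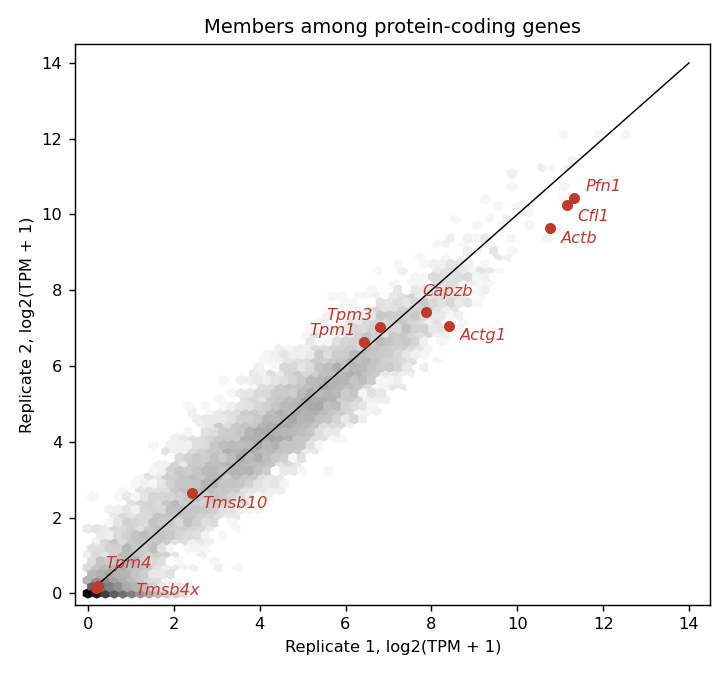
Level in replicate 2 against level in replicate 1, both as log2(TPM + 1), for all protein-coding genes (grey, darker where more genes lie) and the 10 genes described (red), with the line of equal levels. Pfn1, Cfl1, Actb and Actg1 lie under the line, higher in replicate 1, and Tpm1, Tpm3 and Tmsb10 lie just above it.

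The rest of the actin machinery was expressed to varying degrees. Of 162 measured genes in 12 lists, 99 were expressed (61.1%, against 42.5% of protein-coding genes), with a median of 8.70 TPM, against 161 TPM for the 10 genes described. The Arp2/3 complex, which starts branched filaments, was complete, with 10 of 10 genes expressed and a median of 168 TPM. Arpc2 was at 763 and 455 TPM in replicates 1 and 2, Arpc1b at 662 and 793 TPM and Actr3 at 223 and 185 TPM. Genes of nucleation-promoting factors, which switch that complex on, were expressed in 15 of 17 cases, led by Brk1 at 129 and 103 TPM, the haematopoietic Was at 102 and 73.7 TPM and Abi1 at 87.2 and 57.5 TPM, and Wasf3 was under 1 TPM in both. Formins, which build unbranched filaments, were expressed in 5 of 13 cases, led by Diaph1 at 73.5 and 95.3 TPM, with Daam2 and Fmnl1 under 1 TPM. Of the 8 genes of actin-related proteins in other complexes 7 were expressed, with Actr1b and Actr1a of dynactin and Actl6a of chromatin remodellers at 56.3 to 91.4 TPM and the neuronal Actl6b under 1 TPM.

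Genes that work beside profilin and cofilin in monomer supply and severing were expressed in 14 of 24 cases, at levels far under those of Pfn1 and Cfl1. Cap1, which recycles monomers from cofilin, led at 160 and 96.5 TPM, followed by its partner Wdr1 at 101 and 69.9 TPM and the cofilin kinase gene Limk2 at 55.3 and 35.7 TPM. Other capping and end-binding genes numbered 9 of 15, led by the adducins of the red cell membrane skeleton, Add2 at 114 and 142 TPM and Add1 at 125 and 104 TPM, and by Capg at 102 and 81.9 TPM, while Eps8 and Lmod3 were under 1 TPM.

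Bundling, crosslinking and side-binding genes were expressed in 10 of 25 cases. Tagln2, the transgelin of non-muscle cells, stood at 846 and 463 TPM, the coronin gene Coro1b at 228 and 166 TPM and the crosslinker filamin A (Flna) at 270 and 119 TPM, while Flnc, the muscle filamin, and Fscn1 were under 1 TPM in both libraries. Membrane and adhesion linkers numbered 8 of 13, led by Vasp at 257 and 227 TPM, moesin (Msn) at 187 and 176 TPM and talin 1 (Tln1) at 186 and 102 TPM, with Parvb and Parva under 1 TPM. Myosin II genes numbered 5 of 10, led by light chains, Myl6 at 404 and 302 TPM, Myl12a at 234 and 193 TPM and Myl12b at 184 and 92.8 TPM, while Myl9 and Myh14 were under 1 TPM.

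**Figure D5:**
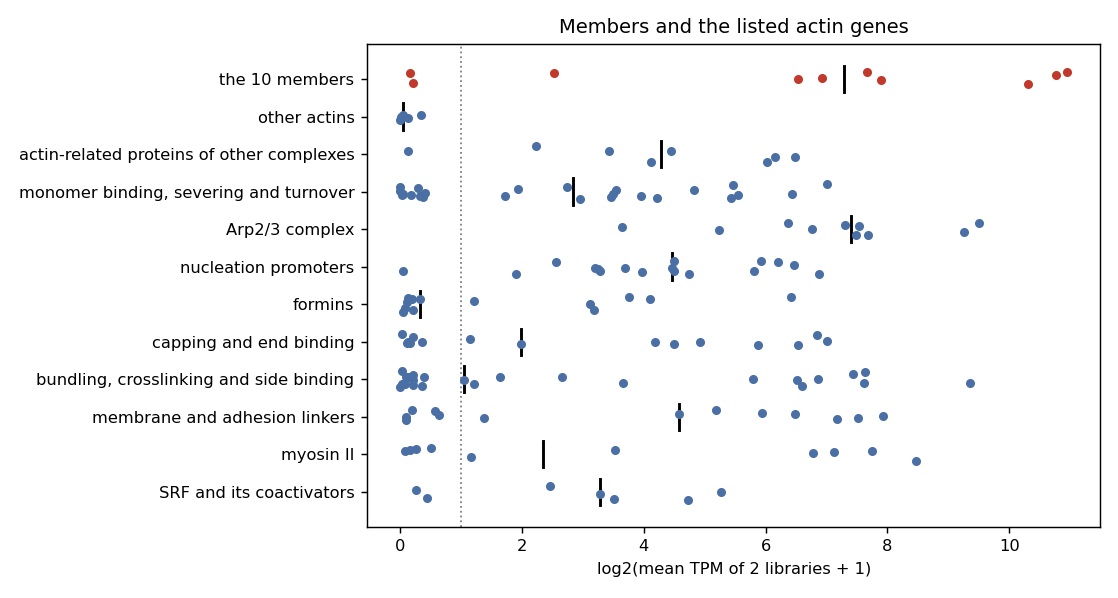
Mean level over both libraries as log2(mean TPM + 1) of the 10 genes described (red, top) and of each gene in 11 of the 12 lists of the actin system (blue), with each list's median as a black bar and a dotted line at 1 TPM. Only Pfn1, Cfl1 and Actb lie to the right of 10, the Arp2/3 list lies wholly to the right of the line, and the other actins lie wholly to its left.

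Genes nearest in level were found as the protein-coding genes with the smallest distance in log2(TPM + 1) over the 2 libraries. Among them were Gpi1 for Cfl1 (distance 0.14), Rps28 for Actb (0.20), Atxn2l for Actg1 (0.070) and Lpcat3 for Capzb (0.039). For the lower genes they were Adprh for Tpm3 (0.026), Eprs for Tpm1 (0.019), Kctd7 for Tmsb10 (0.0084) and Treml1 for Tpm4 (0.013). Tmsb4x had 2 genes at its exact levels, of which Syngr3 was the first in the table. With 2 libraries such likeness describes only where the genes lie in level.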

How the data were processed

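Poly(A) RNA of G1E cells was sequenced single-end, per the labels, in 2 libraries of 1 group, and each had its own gene and transcript table. Per the deposited notes, the tables derive from transcriptome alignments on assembly mm10 with annotation release M4. The aligner, quantifier and strand setting were not given in the sources used here. Overlapping and antisense genes may therefore share reads. Expected counts, estimated reads per feature, were deposited unnormalised. TPM values were deposited as counts over effective length, scaled to a fixed total per library. The authors' percent column gives each transcript's share of its gene's TPM. The deposited signal columns give a posterior mean of TPM with a credibility interval of unstated level. Effective lengths imply 36-nt reads for replicate 1 and 55-nt reads for replicate 2. Entries naming no gene held 0.0363% and 0.00942% of counts and were left out.

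Symbols, positions and transcripts were taken from GENCODE M21, which uses that assembly under its name GRCm38, by identifier without version (42462 matched, 884 did not). TMM factors came from edgeR 4.0.16 in R 4.3.3, on counts rounded to whole numbers, with 0.5 added for ratios. DESeq2 1.42.0 gave alternative size factors. The ratio step was tested on simulated counts without a difference in read length, which checks the calculation and not the calls made in these libraries. The remaining calculations were run in Python 3.11.15 with numpy 2.4.6, scipy 1.17.1 and pandas 2.3.3. No p-value was computed. The genes and lists were chosen with earlier results of these data known. The text names all 10 genes, the genes of 14 pairs, up to 3 highest genes and up to 2 genes under 1 TPM of each list, the nearest gene of each, up to 3 close copies, and transcripts with at least 5% in either library. The Tmsb15 genes, Capza3 and transcripts or markers below these limits are named outside this rule, with values known. The list symbols Mkl1 and Mkl2 are older names of Mrtfa and Mrtfb and were not matched. The genes of 1 list and the nearest gene of Pfn1 are not reported here.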

Additional observations from a re-analysis of the deposited data

How the results depend on the processing

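With 2 libraries of 1 group, levels carry the spread between these libraries only, and low genes are limited by counting. No paired analysis was possible because there was 1 group. The count of genes 2-fold apart between libraries was 0 on TMM-scaled counts, and also with DESeq2 size factors, total counts, no filter on counts and edgeR's filterByExpr, but 2 in TPM (Actb and Actg1) and 1 in TPM rescaled over protein-coding genes (Actg1), a setting chosen after seeing the data. The 8 expressed genes of the set stayed 8 in TPM rescaled over protein-coding genes, in the posterior mean, with close copies added and in either library alone. Of the 14 fixed pairs, 11 passed the bound, against 12 with close copies added (Tpm1 over Tpm3 at -1.70) and 11 under each other setting tried. In 1 library alone 10 to 11 passed the same bound, although it was set for a mean over 2 libraries. The listed genes expressed numbered 99, against 101 to 105 in 1 library alone, 103 at 0.5 TPM, 86 at 5 TPM and 103 after rescaling. Since expressed means 1 TPM or more in both libraries, neither count of expressed genes could fall in 1 library alone. Both libraries had the same leading transcript for 8 genes by TPM and 9 by expected counts. Among values of single genes, pairs, lists and transcripts, 286 kept their call or stayed within the spread, 13 moved, 4 passed a threshold they had not passed and 1 no longer passed it. The 286 include levels and transcript shares in 1 library alone, which could not have moved. With 2 libraries, each value always lies within the SD of their mean. For Pfn1-201 these were 33.9% and 97.3% around a mean of 65.6%. Tpm4 over Tpm2, inside the bound, changed sign with the posterior mean, at -0.05 against 0.15. The number of all genes 2-fold apart was 18638 without a filter on counts, against 4035. Among levels of the 10 genes, the move beyond the spread that was largest as a ratio was that of Tpm3 with Tpm3-rs7 added, at 300 TPM against 120 TPM.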
